A study of Mus musculus with 12 samples.

Results

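The genes described here are Vip, Npy, Cartpt, Gal and Grp, which encode the precursors of 5 neuropeptides. They were taken by name from the deposited table of unique molecular identifier (UMI) counts, where 1 UMI stands for 1 captured transcript molecule, and all 5 were among its 50508 genes. The table covers 1150 wells on 12 plates, with single cells sorted into wells from the longitudinal muscle and myenteric plexus of the intestine of adult C57BL/6 mice. All sorted cells carried the Dclk1-tdTom label, a fluorescent reporter tied to the doublecortin-like kinase gene Dclk1. The plates formed 4 groups of 3: irradiated CD49b+, homeostasis CD49b+, irradiated CD49b- and homeostasis CD49b-, where CD49b is a surface integrin chain and the labels call CD49b+ cells glial and CD49b- cells neuronal. Every mouse, controls included, received 3 mg of tamoxifen (Tam) at 8 or 9 weeks of age, and tissue was collected 10 days later. Irradiated mice (IR) received 10.5 Gy 7 days after tamoxifen, so their tissue was taken 3 days after irradiation. Each plate came from a pool of 2 mice, the CD49b+ and the CD49b- plate of a replicate number came from the same pool, and 6 mice stood behind each treatment. The labels do not name the driver of the reporter beyond Dclk1, and cells without the reporter were not measured.

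Wells were kept with at least 1000 UMIs, at least 500 detected genes and under 20% mitochondrial UMIs, which left 436 of 575 CD49b+ wells and 528 of 575 CD49b- wells. Total UMIs per plate ran from 154993 to 245922 on CD49b+ plates and from 543087 to 747272 on CD49b- plates, and the median kept well held 2110 to 2680 UMIs on CD49b+ plates and 5904.5 to 8335 on CD49b- plates. The gates carried the markers their labels call for: in counts per 1000000 UMIs (CPM), 10 glia markers summed to 25910 to 34246 on CD49b+ plates and 53.9 to 256 on CD49b- plates, and 11 neuron markers to 321 to 1939 on CD49b+ plates and 8022 to 9251 on CD49b- plates, with the neuron marker Uchl1 at 0 in every group. On CD49b- plates 4 kept wells held at least as many glia as neuron marker UMIs, 2 on irradiated replicate 3 and 2 on homeostasis replicate 3. In 1 of those on irradiated replicate 3 the markers were tied at 5 UMIs each. Macrophage markers overlapped between treatments on CD49b+ plates, at 579 to 1592 CPM in irradiation and 364 to 1173 CPM in homeostasis. These sums came from few genes: 3 of the 9 markers had a UMI on irradiated and 4 on homeostasis CD49b+ plates. C1qa, Csf1r, Adgre1 and Ptprc were at 0 in both groups. The irradiated CD49b+ plates of replicates 1 and 2 stood apart. Irradiated CD49b+ replicate 1 held 1 kept well with more neuron than glia marker UMIs, replicate 2 held 3 such wells, and the other 4 CD49b+ plates held 0. Neuron markers summed to 1939, 1389 and 425 CPM on irradiated CD49b+ replicates 1, 2 and 3, against 430, 487 and 321 on the homeostasis CD49b+ plates. Results that rest on those plates are given with and without them. The same 95 well barcodes occurred on all 12 plates, since the barcodes mark well positions. Pooled mice are not separate samples, so n is the number of plates and p-values measure the spread between plates.

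Neuropeptides are made as larger precursors, cut by prohormone convertases in secretory granules and released from dense-core vesicles beside the classical transmitters. In the myenteric plexus, vasoactive intestinal peptide (Vip) is released by inhibitory motor neurons that also make nitric oxide through Nos1, and it relaxes smooth muscle and drives secretion. Neuropeptide Y (Npy) and the CART peptides (Cartpt) are found in overlapping neurons of that kind, galanin (Gal) in several neuron types, and gastrin-releasing peptide (Grp) in interneurons. Galanin and neuropeptide Y are best known outside the gut for rising in sensory neurons after nerve injury.

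In the GENCODE vM21 annotation of GRCm38, Vip lies at chr10:5639218-5647617 on the plus strand, Npy at chr6:49822710-49829507 (plus), Cartpt at chr13:99898489-99901091 (minus), and Gal at chr19:3409915-3414544 (minus). All 5 are protein-coding. Of the 31-base words of their transcripts, 0.414% of those of Vip and 0% of those of the other 4 recur in another gene.

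The 250 bases before the RefSeq start (GRCm38.p6) are shown for Vip, Npy, Cartpt and Gal, the 4 genes found in that promoter table. They are printed 5′ to 3′ on the gene's strand, and capitals mark the cAMP response element TGACGTCA or the part of it present.
Vip, chr10:5638968-5639217, plus strand: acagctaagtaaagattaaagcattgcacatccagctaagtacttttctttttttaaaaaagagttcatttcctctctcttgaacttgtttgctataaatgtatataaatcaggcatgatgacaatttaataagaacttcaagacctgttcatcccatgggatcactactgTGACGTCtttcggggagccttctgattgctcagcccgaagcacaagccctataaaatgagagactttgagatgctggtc
Npy, chr6:49822460-49822709, plus strand: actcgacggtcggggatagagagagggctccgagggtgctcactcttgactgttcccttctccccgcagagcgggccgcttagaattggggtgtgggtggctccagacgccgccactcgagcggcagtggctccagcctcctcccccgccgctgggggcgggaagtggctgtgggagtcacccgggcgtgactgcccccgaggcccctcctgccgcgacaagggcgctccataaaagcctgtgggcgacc
Cartpt, chr13:99900684-99900933, minus strand: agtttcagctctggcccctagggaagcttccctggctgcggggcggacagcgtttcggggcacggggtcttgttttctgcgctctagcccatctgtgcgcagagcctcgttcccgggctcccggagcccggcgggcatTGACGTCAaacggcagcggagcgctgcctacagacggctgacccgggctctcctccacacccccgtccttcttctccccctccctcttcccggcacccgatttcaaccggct
Gal, chr19:3414545-3414794, minus strand: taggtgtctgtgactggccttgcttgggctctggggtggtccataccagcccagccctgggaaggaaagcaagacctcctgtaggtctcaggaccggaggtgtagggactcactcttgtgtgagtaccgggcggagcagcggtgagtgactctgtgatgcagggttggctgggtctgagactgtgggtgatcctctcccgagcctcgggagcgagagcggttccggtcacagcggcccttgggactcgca
Cartpt held the whole element, whose shorter core TGACG lies on both strands of it, and Vip held TGACGTC. Npy and Gal had neither TGACG nor its reverse complement CGTCA in this window, which describes these letters and no binding. Across 32851 RefSeq promoter windows of the same length, searched on both strands, 1.55% held TGACGTCA, 2.78% held TGACGTC and 17.8% held TGACG, each count including the longer motifs. The Cartpt window lies inside the Cartpt gene as GENCODE vM21 draws it, whose 5′ end is farther upstream than the RefSeq start, so it is upstream sequence only under RefSeq. GC content of the windows was 38.4% for Vip, 69.2% for Npy, 66.8% for Cartpt and 62.4% for Gal.

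Between the gates, 4 of the 5 peptide genes were lower in CD49b+ cells: Vip, Npy, Cartpt and Gal, while Grp did not pass the test. In this comparison 62.1% of the 8555 genes tested passed an adjusted p of 0.05, 32.4% as lower and 29.6% as higher in CD49b+ cells, so that 4 of 5 is to be read against a high background. Levels below are CPM of a plate's summed UMIs after TMM scaling, and are not comparable between genes, whose transcripts may not be captured equally well. In bulk sums of a plate, fewer cells with a transcript and less of it per cell cannot be told apart, which is why the wells are given beside them.

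Vip reached 0, 4.73 and 6.80 CPM on the irradiated CD49b+ plates and 0, 0 and 10.7 CPM on those of homeostasis, against 1227, 896 and 2029 CPM on the irradiated CD49b- plates and 312, 1213 and 1116 CPM on the homeostasis CD49b- plates. Every CD49b- plate was thus far above every CD49b+ plate, though how many of all genes were separated between gates was not counted. Over all kept wells 4 Vip UMIs on CD49b+ plates stood against 4188 on CD49b- plates. The difference came to -8.08 on the log2 scale (SE 0.513, n = 6 plates per gate, adjusted p = 2.99e-12 by edgeR's quasi-likelihood test). A plate at 0 allows up to 17.2 CPM, the limit of 3 counts, which covers counting error only.

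Npy was found on every CD49b+ plate in at least 21 UMIs, unlike the other 4. It measured 539, 652 and 395 CPM on the irradiated CD49b+ plates and 124, 183 and 204 CPM on those of homeostasis, against 1515, 730 and 791 CPM on the irradiated CD49b- plates and 821, 1504 and 1025 CPM on the homeostasis CD49b- plates. The gates did not overlap, although the irradiated replicate 2 plates stood at 652 CPM for CD49b+ and 730 CPM for CD49b-. The share of all genes with gates separated in this way was not counted. The log2 fold change of CD49b+ over CD49b- was -1.81 (SE 0.216, adjusted p = 1.47e-07 by edgeR). Npy had a UMI in 18.5% to 65.5% of the kept wells of each CD49b+ plate, where Vip had one in 0% to 2.78%, at the same depth of wells. In CD49b- wells Npy had a UMI in 47.2% to 79.5%.

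Cartpt measured 6696, 99.3 and 6.80 CPM on the irradiated CD49b+ plates and 5.93, 0 and 0 CPM on those of homeostasis, against 5083, 2627 and 6537 CPM on the irradiated CD49b- plates and 766, 1962 and 2873 CPM on the homeostasis CD49b- plates. A single CD49b+ plate, irradiated replicate 1, reached the level of the CD49b- plates. Between gates the difference came to -5.40 on the log2 scale (SE 1.07, adjusted p = 1.42e-04 by edgeR).

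Gal showed the same kind of split on another plate. It measured 36.4, 28877 and 20.4 CPM on the irradiated CD49b+ plates and 23.7, 11.1 and 64.4 CPM on those of homeostasis, against 38066, 12456 and 13391 CPM on the irradiated CD49b- plates and 7255, 15731 and 13482 CPM on the homeostasis CD49b- plates. Irradiated CD49b+ replicate 2 exceeded 5 of the 6 CD49b- plates, and the other 5 CD49b+ plates did not pass 64.4 CPM. The difference came to -4.82 on the log2 scale (SE 0.975, adjusted p = 1.75e-04 by edgeR).

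Grp lies at chr18:65872820-65886596 (plus strand), where it overlaps another gene model on the opposite strand, with which its reads could be confused if strand was not used. It measured 1624, 4.73 and 0 CPM on the irradiated CD49b+ plates and 0, 0 and 5.36 CPM on those of homeostasis, against 110, 108 and 95.1 CPM on the irradiated CD49b- plates and 40.3, 15.1 and 7.19 CPM on the homeostasis CD49b- plates. Its highest plate of all 12 was irradiated CD49b+ replicate 1, and 5 CD49b+ plates lay below every CD49b- plate. Over all kept wells the ratio of CD49b+ over CD49b- shares of UMIs was 4.28 (95% counting interval 3.57 to 5.13), while the fitted log2 fold change, which averages the 2 groups of each gate on the log scale, was -0.43 (SE 1.70, adjusted p = 0.839 by edgeR). The sum and the fit thus differ in sign. Without irradiated CD49b+ replicate 1 the log2 fold change was -4.20 (adjusted p = 1.23e-05 by edgeR).

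**Figure D1:**
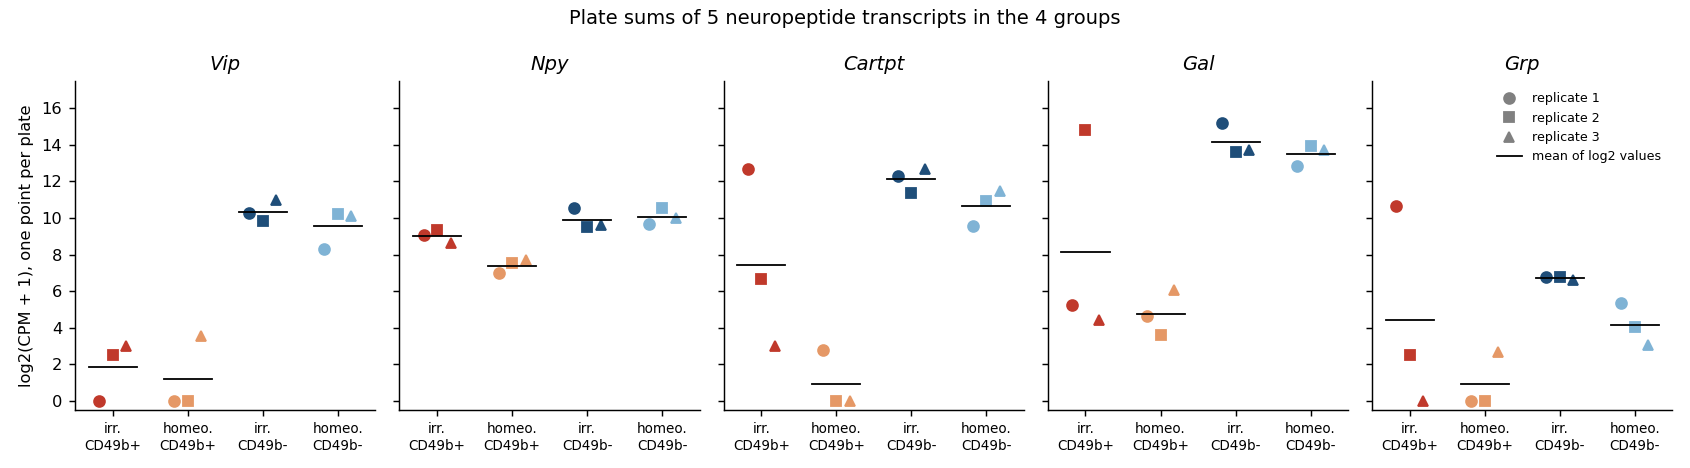
Plate sums of the 5 peptide transcripts as log2(CPM + 1), where CPM is TMM-scaled counts per 1000000 UMIs, with 1 point per plate, shapes for replicates and a bar at the mean of the 3 log2 values. Npy on irradiated CD49b+ plates lies at 395 to 652 CPM in all 3 replicates, while Cartpt, Gal and Grp on irradiated CD49b+ plates are each high on 1 plate.

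After irradiation, 4 of the 5 genes rose in CD49b+ cells in the fit over all plates: Npy, Cartpt, Gal and Grp. On CD49b+ plates alone the low-count filter kept only 1 of the 5, Npy. Cartpt, Gal and Grp were thus tested here only because their counts on CD49b- plates carried them past the filter. In this comparison 0.713% of 8555 genes passed, 0.666% as higher and 0.0468% as lower in irradiated cells. The 4 calls differed in the plates they rested on. Npy was higher on all 3 irradiated plates. Cartpt and Grp rested on replicate 1 and Gal on replicate 2, the 2 plates with neuron-marker wells. All 4 were found in many wells: on those plates Cartpt had a UMI in 69 of 69 kept wells, Grp in 56 of 69 and Gal in 84 of 84. Vip, with 2 UMIs on irradiated and 2 UMIs on homeostasis CD49b+ plates, was too scarce for a fold.

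Npy averaged 529 ± 129 CPM on irradiated CD49b+ plates, against 170 ± 41.1 CPM in homeostasis (SD, n = 3 each). The lowest irradiated plate (395 CPM) stood above the highest homeostasis plate (204 CPM), as did 6.72% of all genes tested; 4.21% were separated the other way. The difference came to 1.63 on the log2 scale (SE 0.331, adjusted p = 0.0143 by edgeR). In wells, Npy was found in 40 of 69, 55 of 84 and 33 of 60 irradiated wells (58.0%, 65.5% and 55.0%) and in 15 of 81, 20 of 70 and 26 of 72 homeostasis wells (18.5%, 28.6% and 36.1%). The highest wells of the irradiated plates held 6, 9 and 6 Npy UMIs, and those of the homeostasis plates 3, 5 and 3, so the difference was one of many wells with few molecules. On the irradiated plates 12, 15 and 9 wells were needed to hold 50% of the plate's Npy UMIs, and on the homeostasis plates 5, 6 and 9.

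With each kept well thinned to 1000 UMIs, Npy was found in 37.7% ± 8.26 of irradiated CD49b+ wells and in 12.3% ± 4.37 of homeostasis CD49b+ wells (SD, n = 3 plates each). The 3 plates of each treatment did not overlap, though the share of all genes separated in thinned wells was not counted. The two-sided exact permutation test gave p = 0.1, the smallest that 3 against 3 allows, and 0.333 after adjustment over the 10 comparisons of gene and gate. Of the 4 neuron-marker wells on CD49b+ plates, 1 held 1 Npy UMI and the other 3 held 0. Irradiated replicate 3, whose neuron markers lay at 425 CPM, within the 321 to 487 of the homeostasis plates, had 395 CPM of Npy. With only wells whose glia markers exceed their neuron markers, the log2 fold change came to 1.75 (with SE 0.326, adjusted p = 0.00740 by edgeR). The 4 CD49b+ wells that this fit drops held the 1 Npy UMI given above, so the value could hardly fall. A source of the Npy UMIs was not tested. Glia markers summed to 25910 to 27976 CPM on irradiated CD49b+ plates and to 31340 to 34246 on homeostasis CD49b+ plates, and their part in the result was not tested.

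With 1 of the 12 plates left out at a time, the log2 fold change stayed between 1.45 and 1.82, and adjusted p ran from 0.00242 to 0.111. It missed the threshold without irradiated CD49b+ replicate 2 (1.45, adjusted p = 0.0810) and without homeostasis CD49b+ replicate 1, 2 or 3 (1.46, 1.68 and 1.80, adjusted p = 0.111, 0.0666 and 0.0783 by edgeR). Without both irradiated replicates that held neuron-marker wells, the value was 1.16 (adjusted p = 0.563), with replicate 3 the lone irradiated CD49b+ plate and assumed to vary like the other groups.

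Cartpt and Grp were high on the same plate. Irradiated CD49b+ replicates 1, 2 and 3 held 1105, 21 and 1 Cartpt UMIs, and homeostasis CD49b+ replicates 1, 2 and 3 held 1, 0 and 0. Grp had 268, 1 and 0 UMIs on the irradiated plates and 0, 0 and 1 on the homeostasis plates. Over all kept wells the ratio of irradiated over homeostasis shares of UMIs was 1058 for Cartpt (95% counting interval 189 to 41814) and 252 for Grp (44.9 to 10008), against 1 UMI of each on the homeostasis plates. The edgeR test gave adjusted p = 0.00795 for Cartpt and 0.0320 for Grp, but without replicate 1 the Cartpt log2 fold change was 4.75 (adjusted p = 0.203) and that of Grp 0.49 (adjusted p = 0.976). None of the 4 calls held when any 1 of the 3 homeostasis CD49b+ plates was left out (adjusted p between 0.0516 and 0.153 for Cartpt, Gal and Grp), and Grp also lost its call without any 1 CD49b- plate (0.0557 to 0.0689). In wells with more glia than neuron markers Cartpt kept its call (9.36, adjusted p = 0.00810) and Grp did not (7.00, adjusted p = 0.0571). Without replicate 1, Cartpt rested on 22 UMIs, of which 14 came from 2 neuron-marker wells of replicate 2.

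Within irradiated CD49b+ replicate 1, 1 neuron-marker well of 24748 UMIs held 480 Cartpt UMIs and 143 Grp UMIs. The other 68 kept wells, of 1471 to 3542 UMIs, all held Cartpt (1 to 24 UMIs, median 9), and 55 of them held Grp (0 to 6, median 2). The 27 wells of this plate that were left out for low depth, with a median of 381 UMIs, held Cartpt in 25 cases and Grp in 20. Per 10000 UMIs, Cartpt was 194 in the neuron-marker well, 39.1 in the other kept wells and 128 in the wells left out, and Grp was 57.8, 7.82 and 28.4 in the same order of wells. The Cartpt to Grp ratio was 3.36 in the neuron-marker well (95% counting interval 2.78 to 4.07) and 5 in the other 68 kept wells (4.12 to 6.11). Neuron markers reached 75.6 UMIs per 10000 in that well, 10.7 in the other kept wells and 14.7 in the wells left out. A source of these UMIs was not tested.

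Gal repeated the pattern on irradiated CD49b+ replicate 2. The irradiated CD49b+ plates held 6, 6109 and 3 Gal UMIs and the homeostasis CD49b+ plates 4, 2 and 12. By edgeR the difference was 8.16 (SE 1.62, adjusted p = 0.0124), but without replicate 2 it was -0.22 (adjusted p = 0.988). In wells with more glia than neuron markers, replicate 2 included, it was 6.26 (adjusted p = 0.0165 by edgeR). Of the 3 neuron-marker wells of replicate 2, 2 held 2428 and 2167 Gal UMIs and the other held 48. All of the other 81 kept wells held Gal, with 4 to 47 UMIs and a median of 17, and so did all 12 wells left out. Per 10000 UMIs, Gal was 1238 in the neuron-marker wells, 71.2 in the other kept wells and 352 in the wells left out. On the 5 other CD49b+ plates Gal was found in 2.86% to 9.72% of kept wells.

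**Figure D2:**
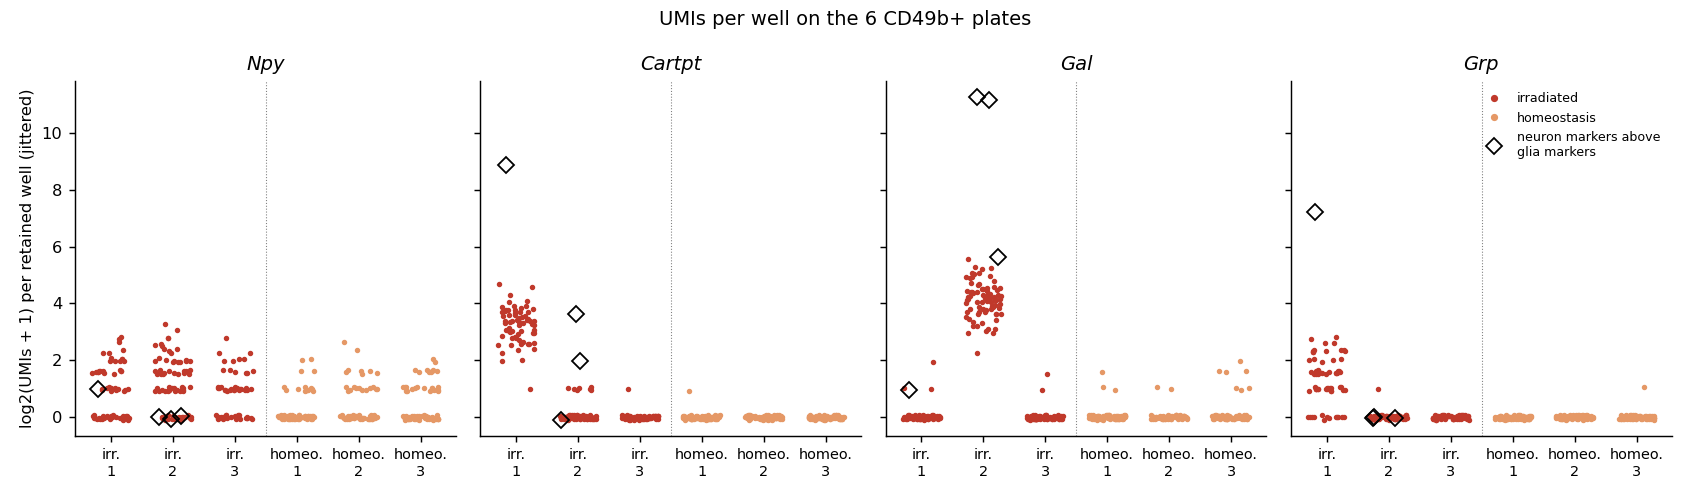
UMIs of Npy, Cartpt, Gal and Grp in each kept well of the 6 CD49b+ plates, as log2(UMIs + 1) with a small jitter; open diamonds are wells with more neuron than glia marker UMIs. Npy is spread over wells of all 3 irradiated plates up to 9 UMIs, while Cartpt and Grp fill the wells of irradiated replicate 1 and Gal those of irradiated replicate 2, below 1 or 2 wells with the highest counts.

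**Figure D3:**
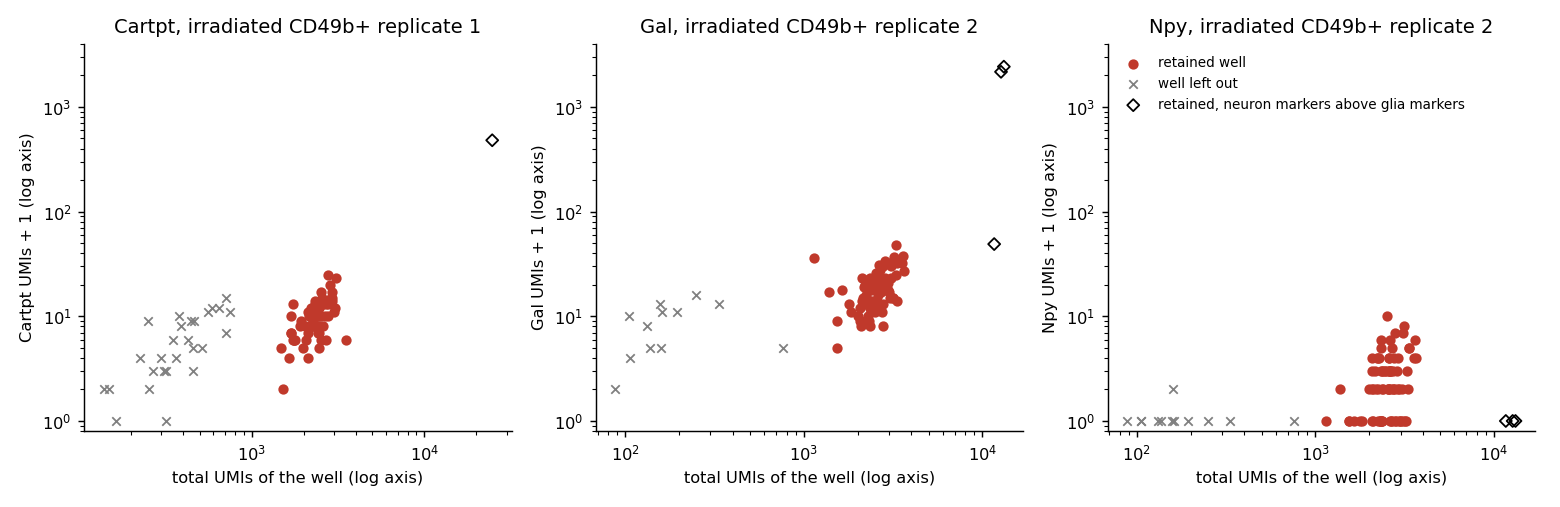
UMIs of a peptide gene plus 1 against the total UMIs of each well, both on log axes, for every deposited well of the plate named above each panel. Cartpt and Gal are found in nearly every well of their plate, wells left out for low depth included, with the highest counts in neuron-marker wells, while the 3 neuron-marker wells of irradiated replicate 2 hold 0 Npy UMIs.

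**Figure D4:**
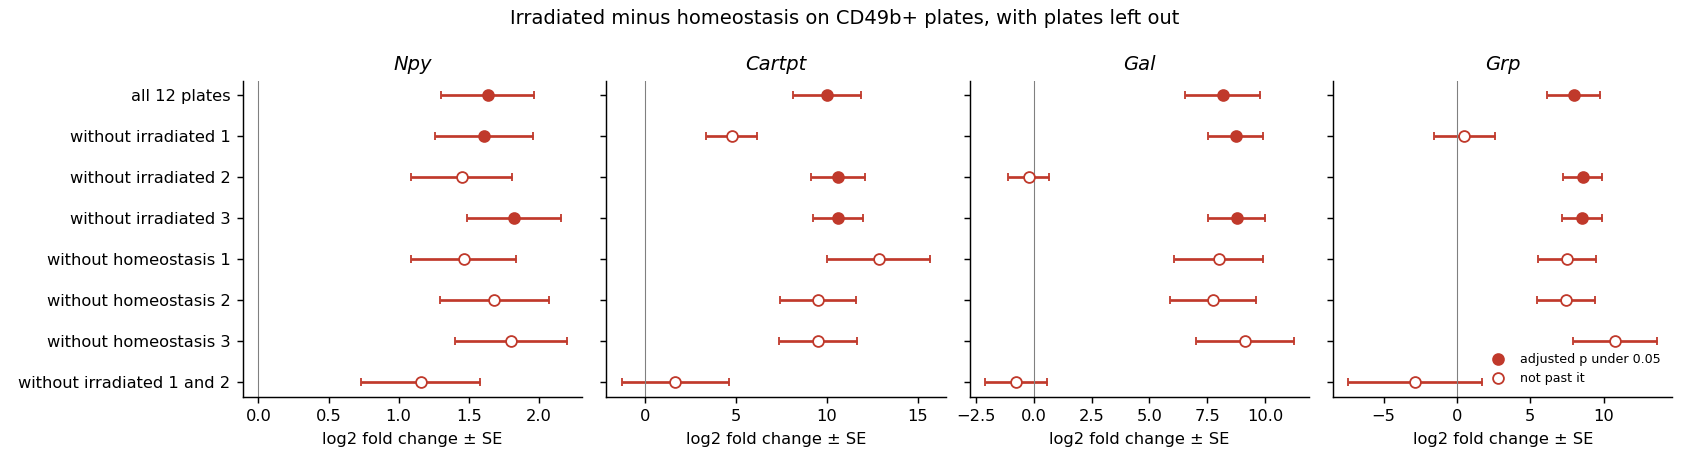
Log2 fold change of irradiated over homeostasis CD49b+ plates with its SE, for the fit over all 12 plates and with the named CD49b+ plates left out; filled points have an adjusted p under 0.05 by edgeR. Npy stays between 1.16 and 1.82, whereas Grp falls to 0.49 without irradiated replicate 1 and Gal to -0.22 without irradiated replicate 2.

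In CD49b- cells, 0 of the 5 peptide genes passed the test after irradiation with edgeR's quasi-likelihood test, where 0.0468% of 8555 genes did; 1 of the 5, Grp, had an unadjusted p under 0.05, and DESeq2, which gave no adjusted p for Gal and Grp, called 0. Vip averaged 1384 ± 583 CPM in irradiated and 880 ± 494 CPM in homeostasis CD49b- plates (SD, n = 3 each), a log2 fold change of 0.65 (SE 0.349). Npy averaged 1012 ± 437 CPM in irradiated and 1117 ± 351 CPM in homeostasis plates (-0.15, SE 0.273), and Gal 21304 ± 14523 CPM in irradiated and 12156 ± 4391 CPM in homeostasis plates (0.81, SE 1.08). For all 3 the plates of the treatments overlapped.

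Cartpt averaged 4749 ± 1976 CPM in irradiated and 1867 ± 1057 CPM in homeostasis CD49b- plates (SD, n = 3 each), a difference of 1.35 on the log2 scale (SE 0.881, adjusted p = 1 by edgeR). Its plates overlapped in sums, at 2627 CPM for the lowest irradiated and 2873 CPM for the highest homeostasis plate. In wells thinned to 1000 UMIs they did not: Cartpt was found in 66.6% ± 17.0 of irradiated and 41.4% ± 5.16 of homeostasis wells (SD, n = 3 plates each). The two-sided exact permutation test gave p = 0.1, the smallest possible, and 0.333 adjusted. The share of all genes separated in thinned wells was not counted.

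Grp was the only one of the 5 whose sums on CD49b- plates did not overlap, at 95.1 to 110 CPM on irradiated and 7.19 to 40.3 CPM on homeostasis plates; 6.45% of all genes tested were separated in this direction and 6.34% in the other. Grp UMIs numbered 53, 74 and 61 on the irradiated plates and 23, 9 and 5 on the homeostasis plates. The wells with a Grp UMI were 22 of 92, 11 of 89 and 9 of 85 on the irradiated plates and 9 of 93, 4 of 78 and 2 of 91 on the homeostasis plates. Single wells weighed heavily, since the highest wells held 13, 32 and 45 UMIs on the irradiated plates and 12, 5 and 4 on the homeostasis plates, which leaves 40, 42 and 16 UMIs and 11, 4 and 1 UMIs outside them. In the fit over all plates the log2 fold change came to 2.35 (with SE 1.01, unadjusted p = 0.0292, adjusted p = 1 by edgeR). Fitted on the 6 CD49b- plates alone, or over all plates but irradiated CD49b+ replicate 1, the change was the same size (2.37, SE 0.371, and 2.35, SE 0.382) and passed the test, with adjusted p = 0.0249 and 0.00265. With CD49b- plates left out one at a time from the fit over all plates it did not pass.

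The irradiation effect in CD49b+ minus that in CD49b- cells, the interaction, passed the test for 0 of the 5 genes by edgeR, where 0.0117% of 8555 genes passed; 4 of the 5 had an unadjusted p under 0.05, and DESeq2 called Npy and Cartpt. For Npy the difference was 1.78 (SE 0.430, adjusted p = 0.115 by edgeR; 0.0229 by DESeq2). Without irradiated CD49b+ replicate 3 it was 1.96 (adjusted p = 0.0165 by edgeR). Cartpt gave 8.67 (SE 2.28, adjusted p = 0.179), Gal 7.35 (SE 1.90, adjusted p = 0.164) and Grp 5.60 (SE 2.68, adjusted p = 0.654), values that again rest on 1 CD49b+ plate each. Cartpt passed without irradiated CD49b+ replicate 3 (adjusted p = 0.00354), and Gal without irradiated CD49b+ replicate 1 or 3 (0.0240 and 0.00331).

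The plates fall into 3 sets by the position labels, which do not say what the sets are, and only the set of replicate 1 plates holds both treatments. Within it, Npy measured 539 CPM on the irradiated and 124 CPM on the homeostasis CD49b+ plate, and 1515 CPM on the irradiated and 821 CPM on the homeostasis CD49b- plate. All 5 peptide genes were higher on the irradiated CD49b- plate of the set: Grp measured 110 CPM on the irradiated and 40.3 CPM on the homeostasis plate, Vip 1227 CPM on the irradiated and 312 CPM on the homeostasis plate, Cartpt 5083 CPM on the irradiated and 766 CPM on the homeostasis plate, and Gal 38066 CPM on the irradiated and 7255 CPM on the homeostasis plate. With the set as a term the differences in CD49b- cells came to 5.92 for Cartpt (adjusted p = 0.477 by edgeR) and 1.96 for Vip (adjusted p = 0.226), larger than without it and still not past the threshold. The set terms were shared by both gates, so a difference in 1 gate also draws on plates of the other. On irradiated CD49b+ plates Cartpt was at 6696 CPM on replicate 1 and at 99.3 and 6.80 CPM on replicates 2 and 3. The 5.92 is thus not a difference measured between CD49b- plates alone. With the set as a term the Npy log2 fold change in CD49b+ cells was 2.498 (SE 0.377, adjusted p = 0.00210 by edgeR) and Gal lost its call. For replicates 2 and 3 the set and the treatment cannot be told apart.

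Within CD49b- cells, the peptide genes were unevenly spread over wells. On each CD49b- plate the 10% of wells highest in Vip held 51.7% to 72.3% of its UMIs, and 3 to 10 wells were enough for 50%. The same 10% measure ran from 51.7% to 72.7% for Npy, 53.1% to 76.0% for Cartpt, 63.1% to 74.6% for Gal and 77.4% to 100% for Grp. Gal was found in every kept CD49b- well, with a median of 11 to 66.5 UMIs per plate, while its highest well held 1600 to 3747 UMIs and 2 to 5 wells held 50% of a plate's Gal. In the 47 CD49b- wells left out, Gal was at 356 UMIs per 10000, against 146 in kept wells. Gal was thus present in every kept CD49b- well and concentrated in a few.

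Beside Nos1, the neuronal nitric oxide synthase, Vip, Npy and Cartpt had the higher share of wells on each of the 6 CD49b- plates, with adjusted p-values just above 0.05 (given after the values). With wells thinned to 1000 UMIs, Vip was found in 44.7%, 60.7% and 59.1% of Nos1 wells of the irradiated CD49b- plates and in 58.6%, 69.7% and 53.3% of those of the homeostasis CD49b- plates, against 13.3%, 8.20% and 17.1% of irradiated and 7.81%, 28.9% and 16.4% of homeostasis wells without Nos1. Every plate had the higher share beside Nos1. The mean over 6 plates was 57.7% ± 8.30 with Nos1 and 15.3% ± 7.74 without (SD), a difference of 42.4 percentage points. Npy was found in 59.0% ± 4.33 of wells with Nos1 and 13.4% ± 7.73 of wells without it (difference 45.6), and Cartpt in 68.2% ± 11.7 with and 45.3% ± 21.0 without (22.8), each higher on 6 of 6 plates. Gal was found in 98.3% ± 2.84 of wells with Nos1 and 86.2% ± 8.32 without (12.2, higher on 5 of 6 plates), and Grp in 1.21% ± 1.92 with and 3.48% ± 3.44 without (higher on 1 of 6).

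Beside Slc18a3, the vesicular acetylcholine transporter that marks cholinergic neurons, the same 3 genes had the lower share on each of the 6 plates. Vip was found in 12.5% ± 4.12 of wells with Slc18a3 and 38.2% ± 10.2 without, Npy in 12.3% ± 6.48 with and 37.5% ± 7.86 without, and Cartpt in 42.3% ± 11.5 with and 57.5% ± 19.6 without (SD, n = 6 plates), each lower on 6 of 6 plates. The two-sided exact sign-flip permutation test gave the smallest p that 6 plates allow for each of these 6 comparisons, and 0.0521 after adjustment over the 10, which misses 0.05. In wells thinned to 2000 UMIs the adjusted value was 0.0446. With p at its smallest value, the adjusted value depends only on how many of the 10 comparisons reach it, and not on the size of a difference. Without thinning, where Cartpt was found in most wells, its share differed by 1.77 percentage points beside Nos1 (higher on 2 of 6 plates) and by -2.23 beside Slc18a3 (higher on 3 of 6), while Vip and Npy kept their direction on 6 of 6 plates for both partners. On the scale of log2(1 + UMIs per 10000), chosen after seeing the data, Vip, Npy, Cartpt and Gal each passed for both partner genes (adjusted exact p = 0.0391).

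**Figure D5:**
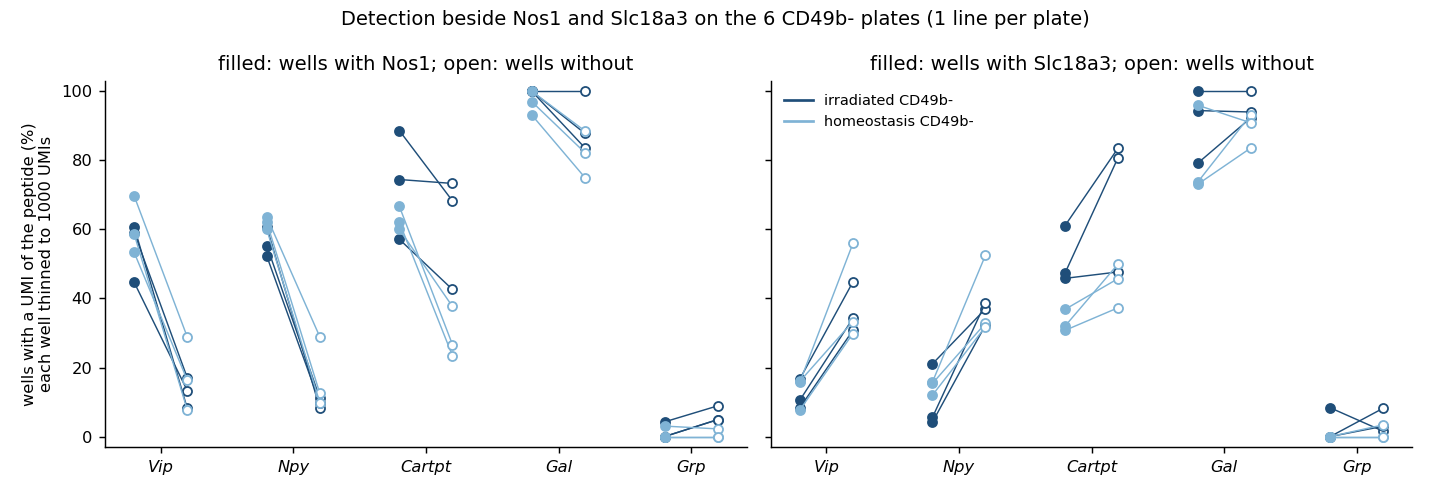
Share of wells with a UMI of each peptide gene among CD49b- wells with (filled) and without (open) a UMI of Nos1 (left) or Slc18a3 (right), every well thinned to 1000 UMIs, with 1 line per plate. Vip and Npy are at 44.7% to 69.7% beside Nos1 and at 28.9% or less without it, on all 6 plates.

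Among themselves the peptide genes overlapped in part. Vip and Npy were found together in 88 of 528 thinned CD49b- wells, where 53.7 would be expected within plates from their separate shares, above expectation on 6 of 6 plates. Vip and Cartpt shared 116 wells (91.6 expected, 6 of 6 plates), and Npy and Cartpt 98 (89.4 expected, 6 of 6). Gal, found in most thinned wells, lay nearer to expectation. It shared 162 wells with Vip (151 expected, above on 5 of 6 plates), 160 with Npy (149 expected, 5 of 6) and 264 with Cartpt (263 expected, 4 of 6). Grp was found with Npy in 2 wells (4.27 expected). Correlations of log2(1 + UMIs per 10000), centred on each plate, were 0.57 for Vip and Cartpt, 0.42 for Vip and Npy, 0.19 for Npy and Cartpt and -0.12 for Npy and Grp over 528 wells. These are descriptions of wells that share libraries and depth.

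The genes most like each peptide gene over the 528 CD49b- wells, among 8443 genes found in at least 10% of them, were led by Nos1 for Vip (Pearson r = 0.66), followed by the transcription factor gene Etv1 (0.63), Gm13889 (0.58), Cartpt (0.57) and the neurotrophin receptor gene Ngfr (0.56). For Npy they were Cox8b, a cytochrome oxidase subunit gene (0.70), Nos1 (0.69), C1ql1 (0.62), Ass1 (0.55) and Rprml (0.55). For Cartpt they were Vip (0.57), Nos1 (0.49), the keratin gene Krt23 (0.49), Ngfr (0.47) and Etv1 (0.47). Gal was most like Etv1 (0.70), Nos1 (0.66), Rprml (0.65), Gm13889 (0.54) and Ass1 (0.52), and Grp like the neurofilament gene Nefl (0.49), the calcium-binding protein gene Scgn (0.48), Tmeff2 (0.37), Serpini1 (0.36) and Parm1 (0.34). Nos1 was thus among the 5 nearest genes of 4 of the 5 members. In the 436 CD49b+ wells the highest r with any member was 0.34, between Cartpt and Gpx3, and the highest with Npy was 0.17, for Rpl18.

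Of 18 tested genes of peptide processing and secretory granules, 14 were lower and 4 higher in CD49b+ cells, with a median log2 fold change of -5.48 against -0.13 over all genes. The granin gene Chgb averaged 28.1 ± 20.3 and 0 CPM on irradiated and homeostasis CD49b+ plates and 502 ± 89.8 and 644 ± 142 CPM on irradiated and homeostasis CD49b- plates (SD, n = 3 each). Pcsk2, a convertase, averaged 43.0 ± 57.8 and 9.06 ± 8.24 CPM on the same CD49b+ plates and 1009 ± 124 and 981 ± 35.4 CPM on the CD49b- plates (log2 fold change -5.53, SE 0.365, adjusted p = 6.31e-12 by edgeR). Those higher in CD49b+ cells were the carboxypeptidase gene Cpe (1.77, SE 0.149), the glutaminyl cyclase gene Qpct (4.85, SE 0.223), Scg3 (0.52, SE 0.152) and the protease gene Furin (1.23, SE 0.515). Genes lower in CD49b+ cells were not all absent there: Pcsk1n averaged 860 and 601 CPM, Pam 261 and 220 CPM and Scg5 186 and 158 CPM on irradiated and homeostasis CD49b+ plates. Furin, though higher, averaged 19.7 ± 14.0 and 34.2 ± 24.2 CPM there. Pcsk1 was at 5.62 ± 6.11 CPM on irradiated and 0 CPM on homeostasis CD49b+ plates. On irradiated and homeostasis CD49b- plates Pcsk1 averaged 66.7 ± 8.66 and 53.5 ± 5.81 CPM.

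After irradiation, 3 of those 18 genes rose in CD49b+ cells, where 0.713% of 8555 genes tested passed. They were Resp18, Ptprn and Chgb, all of secretory granules, and the list median was 1.94 against 0.09 over all genes. On CD49b+ plates alone these 3 genes did not pass the low-count filter. They were thus tested here only because their counts on CD49b- plates carried them past it. Resp18 averaged 791 ± 687 CPM on irradiated CD49b+ plates, against 1.85 ± 3.20 CPM in homeostasis (adjusted p = 0.00106 by edgeR), and its interaction was 8.59 (SE 1.44, adjusted p = 0.0326). Ptprn averaged 59.8 ± 47.1 CPM on irradiated CD49b+ plates and had 0 UMIs on homeostasis CD49b+ plates. By plate, Resp18 was at 1133, 1238 and 0 CPM on irradiated CD49b+ replicates 1, 2 and 3, against 0, 5.55 and 0 CPM in homeostasis, so both plates with neuron-marker wells were high and the plate without them was at 0. Ptprn was at 97.0, 75.6 and 6.80 CPM and Chgb at 30.3, 47.3 and 6.80 CPM on the same irradiated plates. Without replicates 1 and 2, 0 of the 3 was called (adjusted p = 0.892 for Resp18 and 0.689 for Ptprn and Chgb by edgeR). In wells with more glia than neuron markers Resp18 kept its call (adjusted p = 0.00126), while Ptprn and Chgb did not (0.394 and 0.321). The Resp18 interaction held only without irradiated CD49b+ replicate 1 or 3 (adjusted p = 0.0186 and 2.32e-11) among the 12 fits that leave out 1 plate. It missed the threshold without irradiated CD49b+ replicate 2 (0.0511), without homeostasis CD49b+ replicate 1, 2 or 3 (0.226, 0.193 and 0.291) and without any 1 CD49b- plate (0.0983 to 0.209), and also with the mouse pool as a replicate block (0.134) and with wells weighted equally (0.954 by limma). Chgb lost its call in CD49b+ cells without irradiated CD49b+ replicate 1 or 2 (0.0691 and 0.190), without irradiated CD49b- replicate 1 (0.0655), without homeostasis CD49b- replicate 3 (0.0560) and without any 1 homeostasis CD49b+ plate, and Ptprn without homeostasis CD49b+ replicate 3 (0.0710).

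Of 7 other tested neuropeptide genes, 6 were lower in CD49b+ cells (median of the 7, -5.41), among them Tac1, the substance P precursor (log2 fold change -5.35, SE 0.531), and Penk, proenkephalin (-5.23, SE 0.536), and Pthlh was higher (4.19, SE 0.474). In CD49b+ cells 1 of the 7 rose after irradiation, where 0.713% of all genes tested passed. It was Chgb, which is also on the granule list and was tested only through its counts on CD49b- plates. Of 10 genes of transmitter synthesis and transport, 7 were lower and 3 higher in CD49b+ cells (median -5.22), and 0 passed for irradiation in either gate by edgeR, with 2 and 0 at an unadjusted p under 0.05 in CD49b+ and CD49b- cells. Of 16 listed receptor and receptor-partner genes, 4 were tested, and Vipr1, Vipr2 and the Npy, galanin and Grp receptor genes were not among them. Ramp1, Ramp2 and Ramp3, which encode receptor-associated proteins, were higher in CD49b+ cells. Adcyap1r1, a receptor that binds Vip weakly, was lower. It was at 0 CPM on CD49b+ plates and at 88.4 ± 2.40 and 90.8 ± 7.88 CPM on irradiated and homeostasis CD49b- plates.

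Of 13 tested regulators of neuropeptide genes in nerve injury and activity, 10 were higher, 2 lower and 1 did not pass in CD49b+ cells (median 2.15), and 0 passed for irradiation in either gate by edgeR, with 1 and 2 at an unadjusted p under 0.05 in CD49b+ and CD49b- cells. Atf3, an injury-induced transcription factor, averaged 788 ± 210 CPM on irradiated CD49b+ plates, against 661 ± 172 CPM in homeostasis (log2 fold change 0.25, SE 0.269, adjusted p = 0.804 by edgeR). Creb1, whose protein binds the cAMP response element, averaged 89.8 ± 35.2 CPM on irradiated CD49b+ plates, against 118 ± 21.8 CPM in homeostasis (-0.43, SE 0.348, adjusted p = 0.733). Fos averaged 5723 ± 856 CPM on irradiated CD49b+ plates, against 5831 ± 1212 CPM in homeostasis (-0.03, SE 0.242, adjusted p = 0.994). None of the 3 passed the test for irradiation in CD49b+ cells, where 0.713% of all genes tested did. Their part in the Npy result was not tested.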

How the data were processed

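The authors deposited raw UMI counts per gene and well, with no normalisation. Per the labels' protocols, sorted cells were lysed and reverse-transcribed in 96-well plates and libraries made with Nextera XT. The submitters' processing notes list the aligner STAR (2.5.3a) and the counter featureCounts (1.5.3), and as builds both GRCh38 and GRCm38, with no role given. How UMIs were collapsed and whether strand was used are not given in the sources used here.

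Counts of kept wells were summed per plate and tested with edgeR 4.0.16 (R 4.3.3): TMM, filterByExpr, 4 group means with 1 dispersion, quasi-likelihood tests, Benjamini-Hochberg adjustment over 8555 genes at 0.05. Log2 fold changes use a prior count of 0.125. Alternatives used DESeq2 1.42.0 and limma 3.58.1 on log2(CPM + 1). Shares of wells were compared on wells thinned to 1000 UMIs with exact permutation tests. Code was tested on simulated data. Named genes were the 5 members, list genes past the threshold, and the 5 genes most correlated with a member in a gate. The members, lists and tests were chosen with earlier results of these data known. Doublets were not called, and wells with markers of the other gate were left in and given. Intervals are exact binomial (95%) and cover counting error only.

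Replicate numbers pair the gates, since the labels give the same mouse pool. Residuals of paired plates correlated at 0.184, 0.113 and -0.0336 (irradiated) and 0.0971, 0.0431 and 0.0587 (homeostasis). The pool as a block moved no call of a peptide gene between gates or for the interaction; the irradiation effect within a gate lies between pools and was not fitted with it.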

Additional observations from a re-analysis of the deposited data

Results flagged for a closer look

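Wells that the depth and quality filters left out of CD49b+ plates still held peptide transcripts, and these were flagged because they lie outside the comparisons and exceed the level in homeostasis wells. The 74 wells left out of irradiated CD49b+ plates held 78.6 Cartpt UMIs per 10000 and the 65 wells left out of homeostasis CD49b+ plates held 0, where 3 counts would give 2.14 per 10000. Grp was at 17.3 in the irradiated and 0 in the homeostasis wells left out, and Gal at 54.6 in the irradiated and 7.14 in the homeostasis wells left out. Npy was at 4.46 (8 UMIs) in the irradiated and 2.14 (3 UMIs) in the homeostasis wells left out. Almost all of the Cartpt and all of the Grp came from irradiated replicate 1, with 140 of 141 and 31 of 31 UMIs. Most of the Gal came from irradiated replicate 2, with 91 of 98 UMIs.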

How the results depend on the processing

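The numbers of peptide genes and of all genes called moved as follows. For irradiation in CD49b+ cells 4 of 5 peptide genes were called, against 2 of the 3 DESeq2 gave values for, 1 of 5 with wells weighted equally, 1 of the 1 tested on CD49b+ plates alone, 3 of 4 tested in thinned wells, 3 of 5 in marker-matched wells and with the plate set as a term, 0 without irradiated CD49b+ replicates 1 and 2 (added after seeing the data) and 0 to 4 with 1 plate left out. All genes called there numbered 61, against 146 without a count filter, 117 with DESeq2, 17 in thinned wells, 24 in marker-matched wells, 21 with wells weighted equally, 10 on CD49b+ plates alone, 30 with the plate set as a term, 7 without both replicates and 4 to 156 with 1 plate left out. In CD49b- cells 0 peptide genes became 2 without the filter, 1 on CD49b- plates alone, 1 without both replicates and 0 to 1 with 1 plate left out. All genes called there numbered 4, against 45, 0 in thinned wells, 2 with equal weights, 7 on CD49b- plates alone, 9 without both replicates and 1 to 8 with 1 plate left out. For the interaction 0 peptide genes became 4 without the filter, 2 with DESeq2, 1 with the plate set and 0 to 3 with 1 plate left out. All genes called for it numbered 1, against 67 without the filter, 39 with DESeq2, 0 with equal weights, 5 with age at tamoxifen, 4 with the plate set, 0 without both replicates and 0 to 87 with 1 plate left out. Between gates 5311 of 8555 genes were called, 1549 of 2411 tested in thinned wells, 7094 of 26315 without the filter, 6488 of 16613 with DESeq2 and 4317 to 6248 with 1 plate left out; peptide genes called numbered 4 to 5 with 1 plate left out and 3 of 3 with DESeq2. Co-detection tests called numbered 0, 7 at 2000 UMIs and 8 on the log scale. With 1 plate left out they numbered 0 to 0, which was fixed in advance, since the plates that remain allow no p under 0.05. Of 9 combinations of gene and gate, 4 had over 10% of their UMIs in 1 well, and 1 in marker-matched wells. Fewer genes were tested in thinned wells and on the plates of 1 gate; the cause of the other moves was not tested.

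With the mouse pool as a replicate block, 4 peptide genes were called between gates and 0 genes for the interaction, where the Npy value was 1.82 (adjusted p = 0.134 by edgeR) and that of Gal 1.99 (0.938).

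Some log2 fold changes changed sign. Grp between gates ran from -4.20 to 0.0263 with 1 plate left out. Npy in CD49b- cells was 0.63 with the plate set and -0.55 to 0.14 with 1 plate left out. In CD49b+ cells Gal ran from -0.22 to 9.12 and was -0.76 without both replicates, where Grp was -2.84. For the interaction Gal ran from -1.03 to 8.32 (-1.56 without both) and Grp from -1.86 to 8.42 (-5.19 without both). The share of CD49b- wells with Vip differed by 9.98 points unthinned, 5.85 at 2000 UMIs, 3.76 for at least 2 UMIs and -6.40 to 4.85 with 1 plate left out, and that with Npy by -5.71 to 2.89. Grp beside Slc18a3 differed by 4.97 points unthinned, 4.26 at 2000 UMIs, 0.12 on the log scale and -2.92 to 0.0840 with 1 plate left out. No fold is given for Vip by irradiation in CD49b+ cells, with 2 UMIs in each treatment. Plates of 3 per group and few UMIs of Vip, Cartpt and Grp on CD49b+ plates limit what can be detected.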
